A study of Sus scrofa with 8 samples.

Results

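Retinal ganglion cell (RGC) nuclei that carried transcripts of the vector's EGFP gene were compared with RGC nuclei of the same retinas in which no EGFP transcript was counted. The nuclei came from snRNAseq of 4 AAV-injected pig retinas. A barcode was taken as an RGC nucleus when it held at least 5000 unique molecular identifiers (UMIs, each marking 1 captured transcript), at least 2 of SLC17A6, at least 1 of RBPMS and none of LHX1. The members were thus chosen by their measured UMIs of SLC17A6, RBPMS, LHX1 and EGFP and by their depth, and no test is given for these. The cut-offs kept 576 of the 187762 barcodes of the AAV-injected retinas, out of 388491 barcodes in all 8 retinas. Of the 576 nuclei, 247 held at least 2 EGFP UMIs and were called EGFP-positive, 229 held none and were called EGFP-negative, and 100 held exactly 1 and were left out. Because positive nuclei were deeper, equal numbers of both kinds were drawn within each retina and within bins of total UMIs, which left 146 positive and 146 negative nuclei.

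The animals were female Yucatan minipigs aged 3 to 5 months without a stated genetic modification. All of them, vehicle controls included, were given the enzyme preparation Vitrase into both eyes 2 weeks before dosing and weekly methylprednisolone. AAV-injected eyes received 5e11 vector genomes of AAV2.7m8/CAG-GFP into the vitreous, and control eyes received vehicle. The week 2 samples are the left and right retinas of animal 7221, which received AAV, and of animal 7222, which received vehicle. The week 4 samples are 1 left retina each from animals 7248 and 7249 (AAV) and 7250 and 7251 (vehicle). The CAG promoter is active in most cell types, so EGFP marks nuclei in which the vector was transcribed and not a chosen cell type. Each of the 4 groups has a batch of its own in the labels, so treatment and batch cannot be told apart between groups, whereas positive and negative nuclei of a retina came from the same libraries.

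RGCs are the output neurons of the retina, and their axons form the optic nerve. They lie next to the vitreous and are readily reached by AAV2 variants injected there. Cells sense foreign nucleic acids through receptors that lead to the release of type I interferon, and secreted interferon acts through its receptors both on the cell that made it and on its neighbours, which then switch on a common set of interferon-stimulated genes.

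The share of EGFP-positive nuclei differed between eyes. It was 38.9% (72 of 185; exact 95% binomial interval 31.9 to 46.3%) in the left and 68.3% (95 of 139; 59.9 to 76.0%) in the right eye of animal 7221, 28.9% (37 of 128; 21.2 to 37.6%) in animal 7248 and 34.7% (43 of 124; 26.4 to 43.7%) in animal 7249. The right eye of animal 7221 thus stood above the other 3 retinas, whose intervals overlapped each other. These intervals cover counting error only. None of the 629 RGC nuclei of the vehicle retinas held an EGFP UMI, which allows a share of up to 2.56% (3 counts over the total) or 3.10% (upper bound of the exact interval) in the retina with the fewest such nuclei. In lymphocyte-type barcodes of AAV-injected retinas, which should hold little vector, 0.458% of 437 barcodes in animal 7248 and 0.665% of 451 in animal 7249 reached 2 EGFP UMIs, at median depths of 2394 and 2328 UMIs against 21997 and 21292.5 in RGC nuclei. Of those lymphocyte-type barcodes with 5000 or more UMIs, 0 of 48 and 1 of 76 held 2 EGFP UMIs. The left and right eyes of animal 7221 held only 2 and 7 lymphocyte-type barcodes, too few for this check.

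EGFP counts per nucleus were low and uneven. Just inside the threshold lay 51 nuclei with 2 EGFP UMIs and 39 with 3, and just outside it the 100 nuclei with 1. A further 93 nuclei held 4 to 7, 45 held 8 to 15 and 19 held 16 or more, up to 61 in animal 7248. Median depth went from 18582 UMIs in nuclei with no EGFP UMI to 32100 in those with 16 or more, and a nucleus with no EGFP UMI need not lack vector. After matching, the median depth was 24034 UMIs in positive and 23544 in negative nuclei. As a description of what the rule fixed, EGFP stood at 193, 247, 313 and 267 CPM (UMIs of a gene scaled to a common total of 1e6 UMIs in the summed nuclei) in the positive sums of 7221 left, 7221 right, 7248 and 7249.

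**Figure D1:**
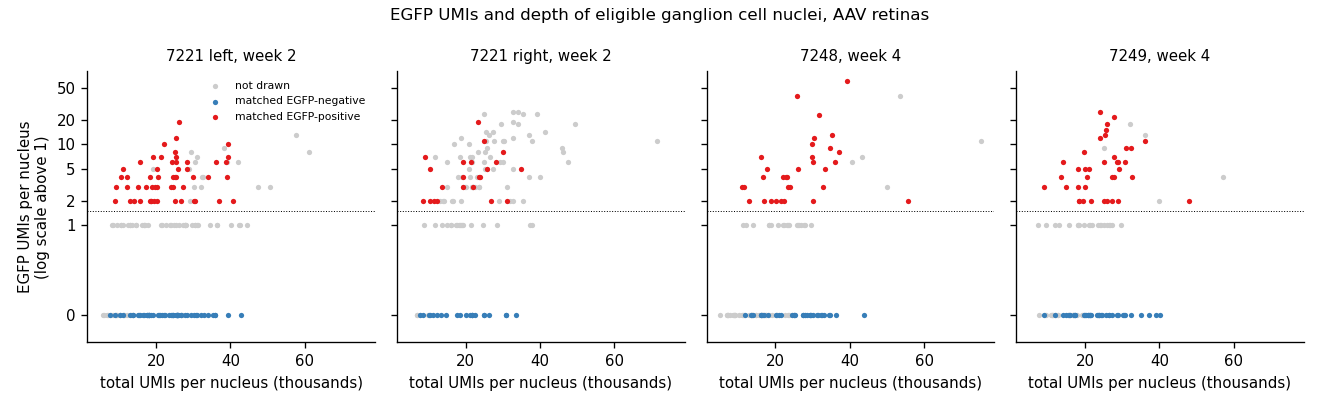
Each point is 1 eligible RGC nucleus of an AAV-injected retina, with its total UMIs on the horizontal axis and its EGFP UMIs on the vertical axis (log scale above 1); colours show the matched positive nuclei, the matched negative nuclei and nuclei not drawn, and the dotted line separates 1 from 2 EGFP UMIs. Nuclei with many EGFP UMIs lie among the deeper nuclei, and the right eye of animal 7221 has the fewest negative nuclei (26).

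The nuclei carried RGC genes. Compared with the other barcodes of 5000 or more UMIs in the same retinas, POU4F2, an RGC transcription factor, stood at 9.58 against 0.13 CPM, the RNA-binding protein gene RBPMS2 at 48.2 against 1.29 CPM, and STMN2, which encodes a microtubule regulator of axons, at 410.4 against 55.8 CPM. ISL1, another gene of the RGC marker list, went the other way, at 31.0 against 65.2 CPM. POU4F1 was near 0, with 25 UMIs in all 576 nuclei, and THY1, NEFM and NEFH are not listed by symbol. The amacrine genes GAD1 and TFAP2B stood at 0.83 and 1.36 CPM against 68.1 and 134 CPM, and the ON bipolar gene GRM6 at 1.51 against 48.1 CPM. No doublets were removed. No eligible barcode sequence of the AAV-injected retinas occurred in more than 1 of their lanes, while 18860 of 368982 barcode sequences occurred in more than 1 of all 32 lanes.

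Few genes separated positive from negative nuclei. UMIs were summed per retina and status, and edgeR's quasi-likelihood test compared the sums with retina as a block. Of 8715 genes tested, 9 passed an adjusted p of 0.05 (0.103%), of which 3 were higher (0.0344%) and 6 lower (0.0688%) in EGFP-positive nuclei, and all 9 had the same sign in 4 of 4 retinas. With retina as a block, the test itself favours genes of the same sign in each retina. For comparison, 7.78% of all genes tested were higher and 5.73% were lower in 4 of 4 retinas, and 5.52% had an unadjusted p under 0.05. Treating both eyes of animal 7221 as 1 animal, so that the fit rested on 3 animals, gave 12 genes, among them all 9.

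The 3 genes that were higher in EGFP-positive nuclei were MYO5B, FSTL4 and a gene with no symbol. MYO5B (chr1:99418242-99810934, Sscrofa11.1, minus strand), a myosin motor that moves recycling endosomes, stood at 240.5, 129, 113.4 and 133 CPM in positive nuclei of 7221 left, 7221 right, 7248 and 7249, and at 115, 40.1, 65.5 and 52.2 CPM in negative nuclei. Positive nuclei were higher in each retina, although the negative nuclei of 7221 left reached the level of the positive nuclei of 7248. The log2 fold change was 1.14 ± 0.15 (SE; edgeR adjusted p = 0.0186).

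FSTL4 (chr2:135486885-136096939, minus strand), a follistatin-like secreted protein that marks direction-selective RGCs in mice, stood at 1019.8, 845, 782 and 736 CPM in positive and at 779, 368, 271 and 277 CPM in negative nuclei of the same retinas. The difference was smallest in 7221 left, where FSTL4 was high in both kinds of nuclei, and the log2 fold change was 1.08 ± 0.15 (edgeR adjusted p = 0.0186). In the week 4 animals the share of nuclei with an FSTL4 UMI was 90.6% in positive against 53.1% in negative nuclei of 7248, and 92.1% against 60.5% in 7249. In animal 7221 the shares were close, at 87.0% and 83.3% in the left and 77.3% and 81.8% in the right eye.

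The remaining higher gene has no symbol in the files and is known here only as ENSSSCG00000033089. It stood at 34.1, 29.0, 232 and 280.3 CPM in positive and at 21.6, 4.71, 109 and 125 CPM in negative nuclei (log2 fold change 1.07 ± 0.17, edgeR adjusted p = 0.0247). Vehicle nuclei held 15.4 ± 3.62 CPM (SD, n = 4 retinas), which both kinds of nuclei exceeded in the week 4 animals. It is outside the rule for named genes, which takes genes with a symbol, and was named after its values were seen.

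The genes that were lower in EGFP-positive nuclei were TRPC7, UNC5C, FBXL7, UNC5D, THSD7B and GPC6. TRPC7 (chr2:138373972-138502280, minus strand), a cation channel of the TRPC family that takes part in light responses of melanopsin RGCs in mice, stood at 65.1, 53.5, 28.7 and 22.6 CPM in positive and at 123, 209.8, 115 and 49.9 CPM in negative nuclei. It was lower in positive nuclei of each retina, with overlap between retinas because the negative nuclei of 7249 were low, and its log2 fold change was -1.47 ± 0.20 (edgeR adjusted p = 0.0186). It was a sparse gene, found in 13.2 to 40.7% of positive and 31.2 to 50% of negative nuclei.

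UNC5C (chr8:124149364-124533755, plus strand) and UNC5D (chr15:50197131-50804604, minus strand) encode netrin receptors that mediate axon repulsion. UNC5C stood at 243, 129, 172 and 199 CPM in positive and at 341, 410.2, 352 and 446 CPM in negative nuclei, so that the lowest negative sum lay above the highest positive sum. Its log2 fold change was -1.06 ± 0.15 (edgeR adjusted p = 0.0186), and fewer positive nuclei held a UMI of it in each retina, with 66.7 against 83.3%, 54.5 against 81.8%, 53.1 against 81.2% and 60.5 against 89.5%. UNC5D stood at 671, 859, 794 and 451 CPM in positive and at 1049, 1136, 1435 and 1088 CPM in negative nuclei, again without overlap (log2 fold change -0.82 ± 0.12, edgeR adjusted p = 0.0194).

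FBXL7 (chr16:4784452-5194193, plus strand), a substrate adaptor of a ubiquitin ligase, stood at 268, 181, 334 and 165 CPM in positive and at 618, 507, 451 and 309.7 CPM in negative nuclei. It was lower in positive nuclei of each retina with a small overlap between retinas (log2 fold change -1.01 ± 0.15, edgeR adjusted p = 0.0186). THSD7B (chr15:14088995-15610635, minus strand), a membrane protein with thrombospondin domains, stood at 1026, 1164, 1072 and 1013 CPM in positive and at 1659.7, 1473, 1845 and 1457 CPM in negative nuclei. GPC6 (chr11:62436143-63560908, plus strand), a glypican that carries heparan sulfate on the cell surface, stood at 1641, 1608, 1291 and 1322 CPM in positive and at 2249, 2289, 1982 and 1887 CPM in negative nuclei. Neither gene's positive and negative sums overlapped, and the log2 fold changes were -0.61 ± 0.09 for THSD7B (edgeR adjusted p = 0.0240) and -0.55 ± 0.09 for GPC6 (edgeR adjusted p = 0.0247). Coordinates are those of the whole gene in RefSeq, introns included, and the 8 named genes spanned 128 to 1522 kb (median 509 kb) against a median of 55.5 kb over the 6862 tested genes that could be placed.

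**Figure D2:**
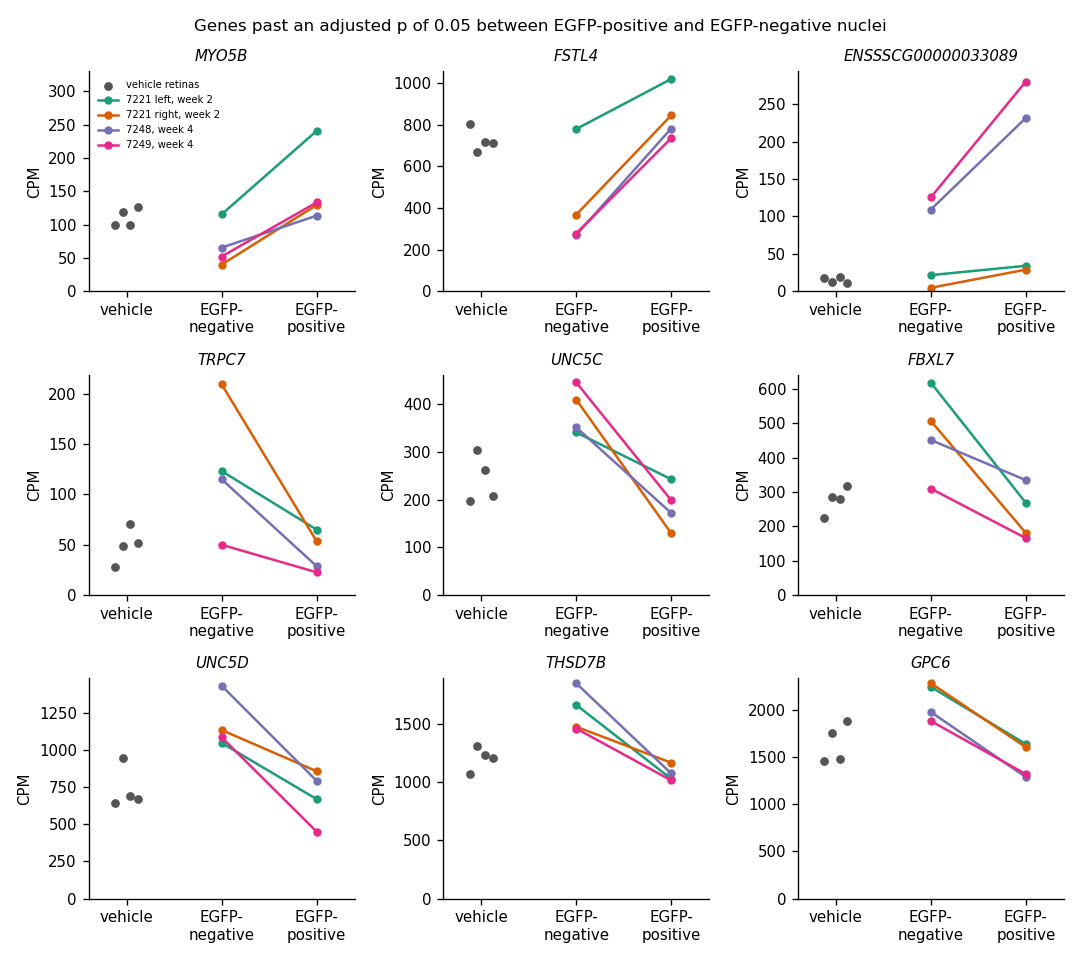
CPM (vertical axis, from 0) of the 9 genes past an adjusted p of 0.05, with the 4 vehicle retinas as grey points and a line joining the matched EGFP-negative and EGFP-positive nuclei of each AAV-injected retina. All lines rise for MYO5B, FSTL4 and ENSSSCG00000033089 and fall for the other 6 genes.

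The nuclei with 1 EGFP UMI, which entered no group, had levels between those with 0 and those with 2 to 4 for all 9 genes in the mean over retinas, but mostly not in each retina. The order held in 4 of 4 retinas for MYO5B, in 3 for TRPC7 and FBXL7, in 2 for UNC5C, THSD7B and ENSSSCG00000033089, in 1 for FSTL4 and GPC6 and in 0 for UNC5D. Over all eligible nuclei without matching, GPC6 stood at 2022 ± 158 CPM (SD, n = 4 retinas) with 0 EGFP UMIs, 1879 ± 410 with 1, 1632 ± 359 with 2 to 4 and 1277 ± 279 with 5 or more. UNC5C went from 373 ± 35.0 through 298 ± 65.5 and 214 ± 61.8 to 196 ± 74.3 CPM, and FSTL4 from 449 ± 219.9 through 543 ± 239.95 and 727 ± 80.5 to 1035 ± 226 CPM. The classes other than that with 1 EGFP UMI include the nuclei from which these genes were called, so their differences follow in part from that choice. The place of the class with 1 EGFP UMI between them therefore follows in part from it too. The order did not hold throughout for 3 genes. From 2 to 4 to 5 or more EGFP UMIs, MYO5B went from 165 ± 27.6 to 123 ± 41.5 CPM, ENSSSCG00000033089 from 163 ± 161 to 146 ± 125 CPM and THSD7B from 1027 ± 144 to 1031 ± 75.8 CPM.

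The nuclei that were not drawn give a second reading of the same retinas. They were uneven, with 18 positive and 17 negative nuclei in 7221 left, 73 and 4 in 7221 right, 5 and 40 in 7248 and 5 and 22 in 7249, and their depths were not matched. In these nuclei FSTL4 was higher in positive nuclei of 4 of 4 retinas, while UNC5D was lower in 3 and the other lower genes in 2 of 4, MYO5B was higher in 2 and ENSSSCG00000033089 in 1. In 7221 left, the only retina with more than 10 such nuclei of each kind, 8 of the 9 genes differed in the direction opposite to that in the matched nuclei, as with GPC6 at 1731 CPM in positive and 853 CPM in negative nuclei, and FSTL4 alone kept its direction with 842 and 707 CPM.

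Levels of the 6 lower genes were weakly to moderately correlated across nuclei that received no vector. Across the 629 RGC nuclei of the vehicle retinas, Pearson's r between log-normalized levels of 2 of these genes, averaged over the 4 retinas, lay between 0.13 and 0.49 in the 15 pairs (median 0.29). Between these genes and MYO5B or FSTL4 it lay between -0.34 and 0.00 in 12 pairs (median -0.17), and between MYO5B and FSTL4 it was 0.02. The nuclei of a retina share library and depth range, and these values are given as a description without a test.

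Levels in vehicle nuclei at week 4 placed the negative nuclei apart for some of these genes. That comparison used all EGFP-negative nuclei and therefore shares them with the comparison above. The vehicle side held all eligible nuclei, whereas the AAV side lacked every nucleus with an EGFP UMI. For genes chosen by their difference with EGFP status, a shift from vehicle can follow from that removal, and this was not tested. FSTL4 stood at 379 and 273 CPM in negative nuclei of 7248 and 7249 against 718 and 713 CPM in the vehicle animals (log2 fold change -1.06, edgeR adjusted p = 0.00129), and MYO5B at 69.2 and 56.2 against 100.002 and 126 CPM (-0.78, adjusted p = 0.0397). UNC5C was higher in negative than in vehicle nuclei (0.80, adjusted p = 0.00608) and so was UNC5D (0.83, adjusted p = 0.00111), whereas TRPC7, FBXL7, THSD7B and GPC6 differed by 0.25 to 0.83 without passing the test. ENSSSCG00000033089 differed by 3.26 (adjusted p = 2.6e-06).

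Other markers and settings moved with these calls. The summed bipolar markers were lower in positive than in negative nuclei of 4 of 4 retinas, at 359.5 against 388 CPM, 375 against 601, 199 against 280.3 and 208 against 262, with vehicle retinas at 353 to 473 CPM. All 9 bipolar markers held UMIs in both groups, and GRIK1, a glutamate receptor gene, led the difference (log2 fold change -0.76, edgeR adjusted p = 0.149). Rod markers went both ways, at 791 against 376 CPM in 7221 left and 81.2 against 173 CPM in 7248, and the amacrine list was higher in 2 of 4 retinas. When barcodes with amacrine or bipolar marker UMIs were left out of both groups, which left 84 nuclei in each, 1 of 6865 genes was called, which was FSTL4 (1.29, edgeR adjusted p = 0.0192), and the other 8 kept their direction without passing the test. Their log2 fold changes were 1.02 for MYO5B, 1.16 for ENSSSCG00000033089, -1.30 for TRPC7, -1.08 for UNC5C, -0.67 for FBXL7, -0.49 for THSD7B, -0.49 for GPC6 and -0.31 for UNC5D. Beyond that setting, the part these markers have in the result was not tested. The count of calls also hung on single retinas, with 3 genes without 7221 left, 28 without 7221 right, 5 without 7248 and 0 without 7249, and on the bins, with 0 at a width of 0.25 log2 units (454 at an unadjusted p under 0.05). All 9 genes kept their direction under each of these settings, which reused many of the same nuclei. A new random draw of nuclei ended the calls of MYO5B (edgeR adjusted p = 0.0839) and TRPC7 (0.0830).

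Interferon-stimulated genes were high in EGFP-negative and EGFP-positive nuclei alike. Of the 65 genes of the list, 58 are listed in the files and 38 passed the filter on low counts. None of the 38 passed the test between positive and negative nuclei (edgeR, lowest adjusted p = 0.655, against 0.103% of all genes called), and DESeq2 called none of them either. Of the 38, 30 had a fold change above 0, against 51% of all genes tested. An unadjusted p under 0.05 in edgeR's test was found for 5 of the 38, against 5.52% of all genes. Higher in 4 of 4 retinas was 1 of the 38, GBP1, against 7.78% of all genes. The median log2 fold change was 0.14, against 0.00 over all genes, and the medians in the 4 retinas were 0.10, 0.25, 0.38 and 0.18.

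The same list separated both kinds of nuclei from vehicle nuclei. At week 4, 39 of 46 list members tested were higher in EGFP-negative than in vehicle nuclei and none was lower (edgeR, adjusted p under 0.05; higher 1.55%, lower 0.631% of 12046 genes), with a median log2 fold change of 3.72. Summed over the list, matched positive nuclei held 1587, 1657, 2584 and 2898 CPM in 7221 left, 7221 right, 7248 and 7249, and matched negative nuclei 1557, 1403, 2029.7 and 2416 CPM. The 4 vehicle retinas held 419.9 to 441 CPM. Positive sums were 1.02, 1.18, 1.27 and 1.20 times the negative sums, and the lowest of the 8 AAV sums was above the highest vehicle retina.

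EIF2AK2, the double-stranded RNA sensor PKR that halts translation, stood at 273, 288, 282 and 236 CPM in positive and at 283, 248, 231 and 223 CPM in negative nuclei (log2 fold change 0.10 ± 0.11, edgeR adjusted p = 0.984). The groups overlapped, and EIF2AK2 stood at 55.6 to 73.1 CPM in vehicle retinas and differed by 2.21 between negative and vehicle nuclei at week 4. MX1, an antiviral GTPase, had a difference of -0.02 ± 0.18, ISG15, a ubiquitin-like modifier, of 0.25 ± 0.29 and IFI6 of 0.15 ± 0.20.

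The interferon-list genes with the smallest unadjusted p all leaned towards positive nuclei. GBP1, an interferon-induced GTPase, stood at 9.52, 20.1, 247 and 157 CPM in positive and at 8.01, 2.36, 171 and 115 CPM in negative nuclei (0.52 ± 0.19, edgeR adjusted p = 0.772). OAS2, which makes the oligoadenylate signal that activates RNase L, differed by 0.43 ± 0.15 (adjusted p = 0.707), PARP14 by 1.08 ± 0.35 (adjusted p = 0.655), DDX60 by 0.42 ± 0.19 and IFI44 by 0.79 ± 0.35 (adjusted p = 0.890 for both). The antiviral GTPase MX2 did not pass the filter on low counts. It had 37 UMIs in positive and 4 in negative nuclei of 7248, 24 and 10 in 7249, and between 1 and 3 in each group of animal 7221. Few nuclei held them, with 6 of 32 positive and 1 of 32 negative nuclei in 7248, and 8 and 5 of 38 in 7249. MX2 was the only list member called when the filter was dropped (log2 fold change 1.65, edgeR adjusted p = 0.0111). These genes, MX1, ISG15 and IFI6 were named after their values were seen.

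**Figure D3:**
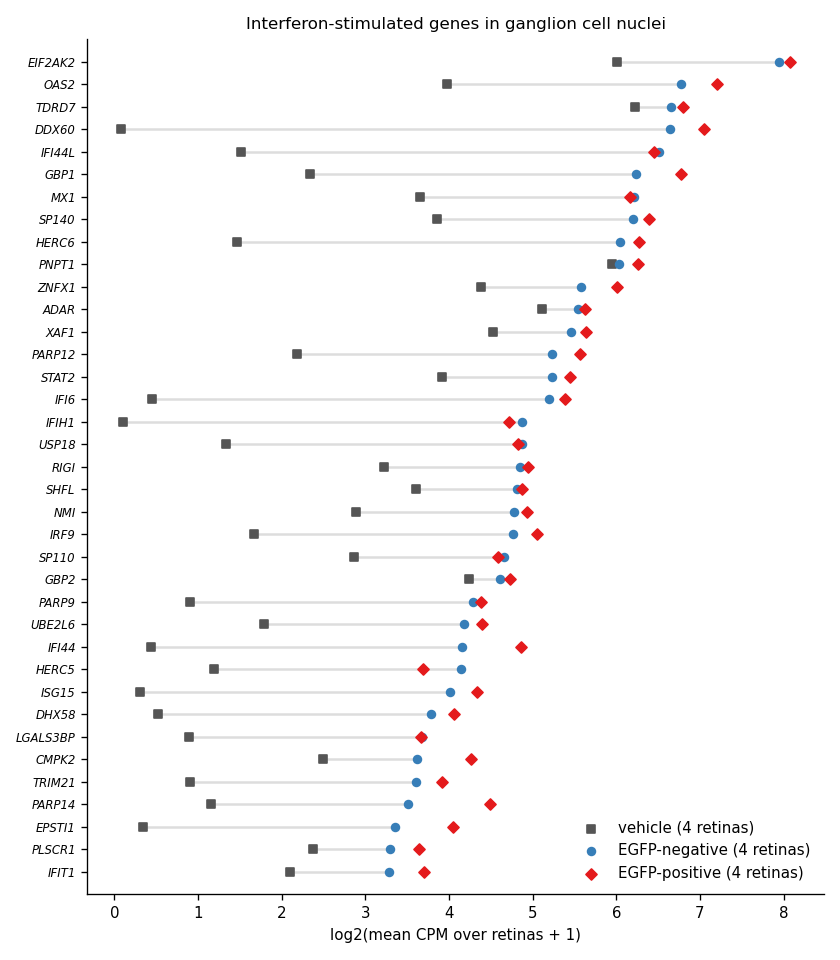
Mean level over 4 retinas, as log2 of CPM plus 1, of 37 of the 38 interferon-list genes that were tested, in vehicle nuclei (grey squares), matched EGFP-negative nuclei (blue circles) and matched EGFP-positive nuclei (red diamonds). Blue lies to the right of grey for all 37 genes plotted, and red lies close to blue.

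The level of the list did not order with the amount of EGFP in the same way in each retina. Over all eligible nuclei with 0, 1, 2 to 4 and 5 or more EGFP UMIs, the summed level was 1647, 1592, 1502 and 1585 CPM in 7221 left, 1457, 2276, 2050.4 and 2447 CPM in 7221 right, 2309, 2681, 2796 and 2241 CPM in 7248, and 2715, 3250.2, 2923 and 2862 CPM in 7249. Nuclei with the most EGFP were the lowest class in 7248 and the highest in 7221 right. The 2 week 4 retinas were above the left eye of the week 2 animal in all classes.

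**Figure D4:**
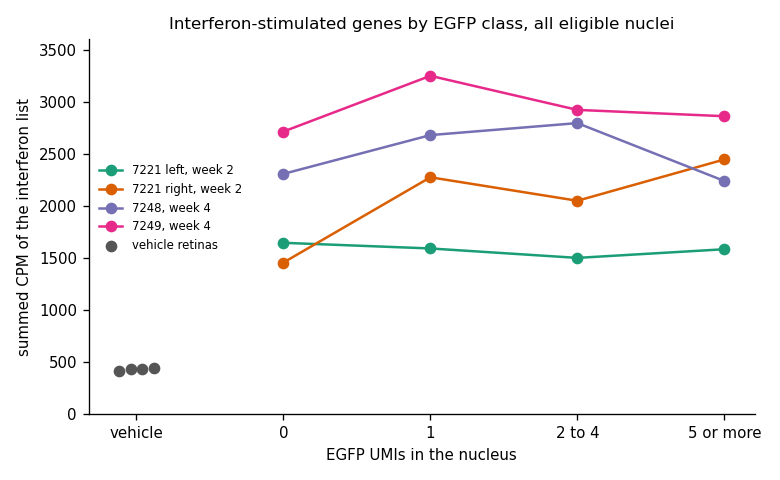
Summed CPM of the interferon-stimulated list (vertical axis, from 0) in all eligible nuclei by EGFP UMIs per nucleus, 1 line per AAV-injected retina, with the 4 vehicle retinas as grey points. Vehicle retinas lie between 419.9 and 441 CPM, below all classes of all AAV-injected retinas.

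Interferon-stimulated genes are switched on through a short DNA element bound by a complex that holds IRF9. Among the 37 list genes that were higher in EGFP-negative than in vehicle nuclei and matched 1 RefSeq gene, 13 (35.1%) held this element, searched on both strands as GAAA, any 2 bases and GAAA, within 250 bases upstream of the annotated gene start, against 3.01% of 19556 protein-coding genes. Overlapping matches were counted separately. The list was put together as interferon-stimulated genes, so a share above that of all genes lay in this choice and is no result about these nuclei. The upstream bases of ISG15, IFIH1 and OAS2 are shown from RefSeq Sscrofa11.1, 5′ to 3′ on the gene's strand and with matches in capitals, because these genes are a modifier, an RNA sensor and an effector of the response that was shared by both kinds of nuclei. A match is a run of letters and no sign of binding.
ISG15 (chr6:63362951-63363200, plus strand): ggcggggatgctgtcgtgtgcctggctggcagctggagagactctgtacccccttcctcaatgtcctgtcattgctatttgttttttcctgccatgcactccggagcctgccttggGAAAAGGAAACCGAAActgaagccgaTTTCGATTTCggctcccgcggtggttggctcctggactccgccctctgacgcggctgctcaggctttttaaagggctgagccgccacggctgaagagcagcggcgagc
IFIH1 (chr15:68985146-68985395, minus strand): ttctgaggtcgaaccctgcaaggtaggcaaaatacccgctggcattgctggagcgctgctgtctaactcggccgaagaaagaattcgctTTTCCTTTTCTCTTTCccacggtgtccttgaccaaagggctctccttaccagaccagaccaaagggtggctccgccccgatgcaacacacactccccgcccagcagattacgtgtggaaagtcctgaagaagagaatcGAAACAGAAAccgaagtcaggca
OAS2 (chr14:38847698-38847947, minus strand): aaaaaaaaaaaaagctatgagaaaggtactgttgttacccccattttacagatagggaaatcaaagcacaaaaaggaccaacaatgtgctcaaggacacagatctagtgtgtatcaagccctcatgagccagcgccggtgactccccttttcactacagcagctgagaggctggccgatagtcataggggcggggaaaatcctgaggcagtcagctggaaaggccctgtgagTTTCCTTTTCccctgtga

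Genes of antigen presentation, interferon signalling and nucleic acid sensing gave no call between positive and negative nuclei. MHC class I presentation genes, which carry peptides to the cell surface, summed to 67.5, 107, 358 and 315 CPM in positive and to 73.7, 68.4, 285 and 253 CPM in negative nuclei, against 18.4 to 21.6 CPM in vehicle retinas. Positive nuclei were higher in 3 of 4 retinas, and none of the 6 tested members passed the test (median log2 fold change 0.21), whereas 12 of 12 were higher in negative than in vehicle nuclei at week 4 (1.55% of all genes, median 3.80). NLRC5, the activator of these genes, differed by 0.28 ± 0.19 and B2M, their shared light chain, by 0.15 ± 0.22. None of 16 interferon signalling genes passed (median 0.07), among them the kinase gene JAK2 (0.11 ± 0.14) and PIAS1, an inhibitor of the pathway (-0.13 ± 0.11). Against vehicle nuclei at week 4, 8 of 16 were higher (median 0.70), while JAK2 and PIAS1 differed by 0.12 and 0.17 without passing the test (edgeR adjusted p = 0.732 and 0.615). None of 8 nucleic acid sensing genes passed between positive and negative nuclei (median 0.08), among them the kinase gene TBK1 (0.18 ± 0.18). The NF-kB list left 1 tested gene, NFKB1 itself (-0.22 ± 0.22).

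Cytokine and cell cycle genes of interest in this study were too sparse to test. CXCL10, a chemokine that attracts T cells, had 8 UMIs in the 146 positive and 2 in the 146 negative nuclei. CDKN1A, the p53-induced cell cycle inhibitor p21, had 4 and 1, and CCL2, a chemokine for monocytes, had 1 and 1. None of the 3 had a UMI in the 629 vehicle nuclei, and a difference between positive and negative nuclei was not detectable at this depth.

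No stress gene passed the test between positive and negative nuclei. Of the 14 tested genes of the integrated stress response and the unfolded protein response, which slow translation and refold proteins, none passed the test, and the median log2 fold change was 0.04 against 0.00 over all genes. ATF6, a sensor of misfolded protein, differed by 0.05 ± 0.13, and EIF2AK4, a kinase that senses amino acid shortage, by 0.04 ± 0.13. The list summed to 809, 836, 799 and 956 CPM in positive and to 848, 724, 781 and 923 CPM in negative nuclei, so that the groups overlapped, with vehicle retinas at 720.1 to 834 CPM.

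None of the tested members passed in the lists of axon injury (11 tested, median 0.05), heat shock (12, median 0.02), p53 targets (8, median -0.02), apoptosis (12, median 0.05) and oxidative stress (9, median 0.10), and none of the immediate early genes passed the filter on low counts. Fold changes were above 0 for 7 of 9 oxidative stress, 10 of 14 stress-response, 7 of 11 axon injury, 6 of 12 heat shock, 4 of 8 p53 and 7 of 12 apoptosis genes (51% of all genes). Higher in 4 of 4 retinas were 4 of 9, 2 of 14, 1 of 11, 3 of 12, 1 of 8 and 2 of 12 of them in the same order (7.78% of all genes), and lower in 4 of 4 were 0, 0, 0, 1, 2 and 1 (5.73%). Of their most abundant members, the axon maintenance enzyme gene NMNAT2 differed by 0.08 ± 0.11, the chaperone genes DNAJB4 and HSPA4L by 0.05 ± 0.15 and -0.02 ± 0.14, and NFE2L2, which drives the antioxidant response, by 0.00 ± 0.16. The p53 targets POLH and SESN1 differed by -0.09 ± 0.17 and -0.27 ± 0.17, the cell death kinase gene RIPK1 by 0.01 ± 0.16 and the glutathione synthesis gene GCLM by 0.18 ± 0.16.

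BCL2, which blocks apoptosis at the mitochondrion, came nearest to the threshold among stress genes. It stood at 53.2, 49.1, 43.0 and 54.8 CPM in positive and at 83.3, 149, 75.2 and 62.2 CPM in negative nuclei. The positive sums lay below all negative sums, with a log2 fold change of -0.78 ± 0.20 that did not pass the test (edgeR adjusted p = 0.306).

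RGC identity genes were at like levels in both kinds of nuclei. None of 24 tested members passed, 13 had a fold change above 0, and the median was 0.00. Their sums were 7784, 8402, 7679 and 7308 CPM in positive, 8181, 7966, 7654 and 7249 CPM in negative nuclei and 7441 to 7643 CPM in vehicle retinas. ANK3, the scaffold of the axon initial segment, differed by -0.10 ± 0.08, the transcription factor gene EBF1 by -0.02 ± 0.09 and STMN2 by 0.01 ± 0.11. The rule genes are given as a description, with SLC17A6, the vesicular glutamate transporter, at 308, 296, 429 and 387 CPM in positive and at 418, 285, 323 and 337 CPM in negative nuclei, and the RNA-binding protein gene RBPMS at 1016, 1313, 1232 and 998 CPM against 1195, 1212, 1227 and 1133 CPM.

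Of 13 tested genes that mark RGC subtypes, 1 passed, which was FSTL4 (0.103% of all genes), and 11 had a fold change above 0 (51% of all genes). The median log2 fold change was 0.17, with 0.23, 0.51, -0.05 and 0.29 in the 4 retinas, and 3 of 13 members were higher in 4 of 4 retinas (7.78% of all genes). The sums were 2786, 2547, 2382 and 2407 CPM in positive and 2157, 1723, 1799 and 1591 CPM in negative nuclei, with vehicle retinas at 2241 to 2345 CPM, FSTL4 included. The forkhead factor gene FOXP1 differed by 0.17 ± 0.10. BNC2 and FOXP2, transcription factor genes named after their values were seen, differed by 0.81 ± 0.30 and 1.03 ± 0.44 without passing the test (edgeR adjusted p = 0.789 and 0.855).

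Genes of excitability and synapses, which set how RGCs fire, did not differ as a list. None of 31 passed and the median was -0.03, with SYT1, the calcium sensor of transmitter release, at -0.12 ± 0.09 and the glutamate receptor gene GRIA4 at -0.04 ± 0.10. KCNQ3 and GABRB2, named after their values were seen, had the same sign in 4 of 4 retinas. The potassium channel gene KCNQ3 stood at 417, 330.03, 386 and 241 CPM in positive and 244, 203, 166 and 219.8 CPM in negative nuclei (0.68 ± 0.15, edgeR adjusted p = 0.172), and the GABA receptor gene GABRB2 at 301, 421, 209 and 221 against 380.5, 514, 313 and 327 CPM (-0.47 ± 0.10, adjusted p = 0.179). Of 29 tested genes for AAV entry and vector silencing, none passed (median -0.05), with the Golgi calcium pump gene ATP2C1 at 0.08 ± 0.11 and the DNA repair gene RAD50 at -0.05 ± 0.10.

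**Figure D5:**
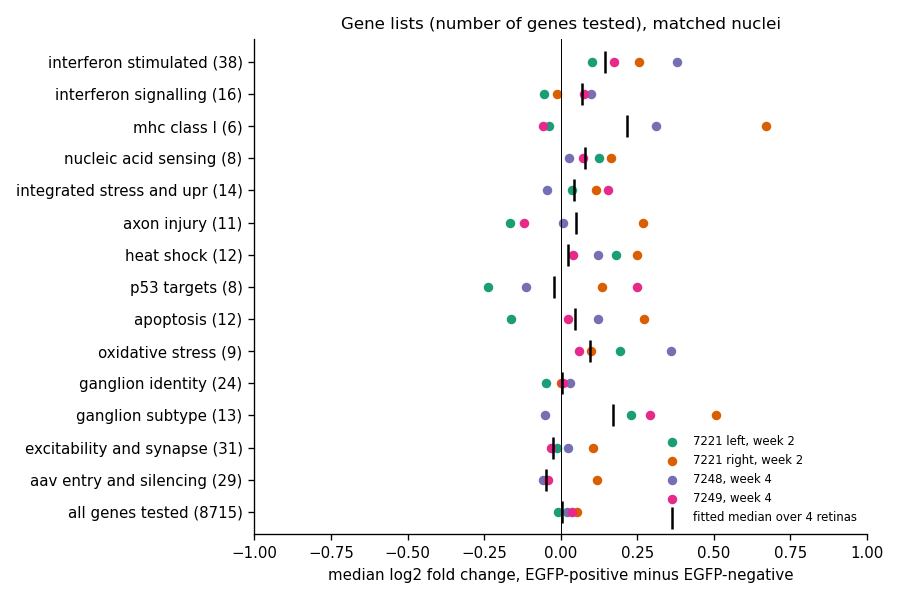
Median log2 fold change of each gene list with 6 or more tested genes between matched EGFP-positive and EGFP-negative nuclei, with 1 point per AAV-injected retina and a bar for the fitted median over tested members; the axis is in log2 units and 0 means no difference. The interferon-stimulated list lies at 0.14 and the identity list at 0.00.

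The difference between positive and negative nuclei was also compared between weeks. The interaction of EGFP status and week passed the test for 16 of 8715 genes (0.184%), with 5.81% at an unadjusted p under 0.05. In 15 of the 16 the difference had 1 direction in both eyes of the week 2 animal and the opposite direction in both week 4 animals. The interaction test itself selects for that pattern. None of the 16 was among the 9 genes above. No interferon-list gene was among them. Because week 2 is 1 animal, week and animal cannot be told apart.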

How the data were processed

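Nuclei of pig retina were sorted on DAPI and sequenced on the 10x Chromium platform, 4 lanes per retina. Reads were mapped by the authors with Cell Ranger 8.0.0 to Sscrofa11.1, to which EGFP had been added, and they deposited unnormalized UMI counts of filtered barcodes, with no cell types. Members and gene lists were chosen with earlier results of these data known. Counts of matched nuclei (bins of 0.5 log2 units, seed 1) were summed per retina and EGFP status and tested with edgeR 4.0.16 (R 4.3.3; TMM scaling, filterByExpr, quasi-likelihood F test, Benjamini-Hochberg adjustment) with retina as a block, since both sums came from 1 retina. The script was tested on simulated data. Named genes are those past an adjusted p of 0.05 with 1 sign in 4 of 4 retinas, the 2 most abundant tested members of each list, and CDKN1A, CCL2 and CXCL10; exceptions are marked, and 2 list genes are not reported here. An exact paired permutation test over 4 retinas cannot go below a two-sided p of 0.125. Total counts per retina were 121544835 to 173614051 UMIs. Intervals cover counting error only. DESeq2 1.42.0 was an alternative.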

Additional observations from a re-analysis of the deposited data

Results flagged for a closer look

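The difference between EGFP-positive and EGFP-negative nuclei changed between week 2 and week 4 for 16 genes by edgeR's interaction test. The 14 with a symbol were named after their values were seen. The difference was more positive at week 4 for TMEM132D (week 4 minus week 2, log2 units, 1.56), SPON1 (1.97), NELL1 (1.504) and PLPPR1 (1.43). It was more negative at week 4 for SGCZ (-1.41), COL9A1 (-4.03), SAMD7 (-3.54), the netrin receptor gene DCC (-1.79), GXYLT2 (-5.39), ADGRV1 (-1.35), PTPRM (-1.49), RELN (-1.08), EYA2 (-3.03) and EEPD1 (-2.85). SPON1, which encodes an extracellular matrix protein, stood at 99.2 and 118 CPM in positive and 127 and 169.7 CPM in negative nuclei of the week 2 eyes, and at 166 and 164 against 53.4 and 58.8 CPM at week 4. DCC stood at 494 and 785 against 298 and 248 CPM at week 2, and at 337 and 415 against 627 and 553 CPM at week 4. SAMD7 stood at 67.5 and 49.1 against 22.4 and 28.3 CPM at week 2, and at 3.58 and 16.1 against 34.0 and 56.6 CPM at week 4. The summed rod markers went the same way in each retina. They stood at 791 and 537 against 376 and 512 CPM at week 2, and at 81.2 and 211 against 173 and 252 CPM at week 4. The part of rod RNA in these week differences was not tested. The week 2 values come from 1 animal.

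Single retinas stood apart for 2 genes and 2 list medians out of 53 sets of 4 retinas checked, and chance alone marks about 1 in 20 such sets. NFKB1 had a log2 difference of -1.35 in 7221 right, against -0.06 to 0.06 in the others, and is the only tested gene of its list, whose median is therefore the same. DNAJB4 had -0.32 in 7249, against 0.18 to 0.28. The AAV entry and silencing list had a median of 0.12 in 7221 right, against -0.06 to -0.04.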

How the results depend on the processing

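The 9 calls between EGFP-positive and EGFP-negative nuclei kept their direction under all alternatives run. These alternatives reused many of the nuclei from which the 9 genes were called, so a kept direction is no independent check. In the nuclei that were not drawn, only FSTL4 kept its direction in 4 of 4 retinas. The number of calls changed between alternatives. It was 14 with positive nuclei set at 1 or more EGFP UMIs, 5 at 4 or more, 73 without matching, 0 with narrower bins, 1 without barcodes holding amacrine or bipolar markers and 88 without the low-count filter. Dropping the replicate block, so that the pairing within retinas was ignored, gave 0 (267 at an unadjusted p under 0.05). Leaving out 1 retina gave 0 to 28. Another seed, a minimum of 10000 UMIs, a limit on mitochondrial share, no TMM scaling, DESeq2 and 3 animals gave 7 to 12. Of the 9 genes, another seed lost MYO5B and TRPC7, the minimum of 10000 UMIs THSD7B and GPC6, the mitochondrial limit GPC6 and ENSSSCG00000033089, and DESeq2 ENSSSCG00000033089, while 1 of the 9, FSTL4, was among the 5 at 4 or more EGFP UMIs and 7 were among the 14 at 1 or more. The interferon-list median stayed at 0.09 to 0.26. The stress-response median was -0.051 without barcodes holding other markers and 0.14 with the mitochondrial limit. The identity median was -0.040 at 4 or more EGFP UMIs, -0.053 without matching, -0.059 with narrower bins, -0.12 with another seed, -0.061 without barcodes holding other markers, and -0.0043 to 0.043 on leaving out 1 retina. The week count was 3 with DESeq2 and 5 without matching. The 263 calls between negative and vehicle nuclei became 159 with DESeq2, 567 without the filter and 287 to 545 on leaving out 1 retina. The cause of these changes was not tested. With 22 to 54 nuclei per sum, genes of few UMIs could not be compared.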
